A study of Homo sapiens with 4 samples.

Results

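The genes described here are 10 intermediate filament genes of the neuronal and epithelial kinds: INA, NEFL, NEFM, NEFH, PRPH, VIM, NES, SYNM, KRT8 and KRT18. They were taken by symbol from a list, and all 10 were found among the 69222 gene identifiers of the count files. The files come from 4 poly(A) RNA libraries of HEK293T, an established line derived from human embryonic kidney and expressing large T antigen of SV40. There were 2 groups of 2 libraries: cells given a control hairpin by lentivirus (shCtrl), and cells given a hairpin against RPRD1B (shRPRD1B), a protein that binds the tail of RNA polymerase II. Nothing in the labels says that the replicates were separate cultures, so the p-values rest on a spread between libraries that may be only technical.

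Intermediate filaments are rope-like polymers of the cytoplasm that give cells and axons their mechanical strength. Each protein has a central helical rod through which it pairs with partners, and the partners differ by cell type. Type I and type II keratins pair with each other in epithelia, and KRT18 with KRT8 is the pair of simple epithelia. VIM (vimentin) is the filament of mesenchymal and many cultured cells, and NES (nestin) and SYNM (synemin) join it as partners. In neurons, NEFL, NEFM and NEFH (the light, medium and heavy neurofilament chains), INA (alpha-internexin) and PRPH (peripherin) share filaments.

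The rod ends in a segment that is conserved across the family, and the bases coding for it are set side by side below. The segment was located by a pattern in the translated sequence, so part of the likeness between members was fixed by the search. The 30 bases below begin at the place where the translated coding sequence matched the family's pattern, which was found once in each of the 10 genes. The 8 genes listed are shown, and NEFL and NEFM are not. They are read 5′ to 3′ from the coding strand of GENCODE 29 transcripts, and in VIM they start at base 1195 of the coding sequence. Capitals mark bases that differ from VIM at the same place.
VIM: acctacaggaagctgctggaaggcgaggag
KRT8: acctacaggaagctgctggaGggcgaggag
PRPH: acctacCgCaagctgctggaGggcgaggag
INA: GcTtacaggaaActgctggaaggcgaggag
NEFH: GcTtacagAaaActCctggaaggTgaAgag
KRT18: acctacCgCCGCctgctggaagATgGCgag
NES: acGtacaggaCCctCctggaGgCTgagAaC
SYNM: acctacCggGCCTtATtggaaggAgaAAGT
KRT8 differed from VIM at 1 of these bases and INA and PRPH at 3 each, while NES and KRT18 differed at 9 each and SYNM at 12. KRT18, the keratin partner of KRT8, was farther from VIM here than KRT8 was. The bases in which KRT8 and PRPH differ from VIM do not change the encoded amino acids. Counts over 30 bases found this way do not rank the members by relatedness.

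The library totals lay between 47732913 and 65572391 counts. Values are given as CPM, the counts of a gene per 1000000 counts of a library, on library sizes scaled by edgeR's TMM factors. In the control libraries RPRD1B itself had 50.4 and 50.1 CPM, and in shRPRD1B 1 it had 27.2 and in shRPRD1B 2 35.5 CPM, lower as the labels say (edgeR adjusted p = 0.448, DESeq2 adjusted p = 0.0467). The shRPRD1B pair was less alike than the shCtrl pair: over 8966 genes of at least 16 CPM, the SD of the log2 ratio between libraries was 0.39 and 0.17. A low count is not proof of a low transcript level in these files. POLR2A, which every cell uses, had between 0.76 and 1.37 CPM. Among 8 kidney epithelium markers, 2 reached a mean of 1 CPM and 1 a mean of 10 CPM (WT1, at 9.77 to 13.6 CPM). The leukocyte genes PTPRC and CD3E were at or near 0, and of 12 epithelial markers none reached a mean of 10 CPM.

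HEK293T cells of both groups carried filament mRNAs of all these classes at once. On a scale of CPM per kilobase of transcript, which takes the length of each gene's transcript into account, VIM was highest, between 76.0 and 99.5 over the 4 libraries. KRT18 followed at 31.0 to 37.6 CPM per kb, NEFL at 21.5 to 30.4 and NEFM at 17.7 to 26.2. INA at 7.19 to 13.7 and KRT8 at 3.04 to 12.8 CPM per kb came next. NES lay at 1.73 to 2.36, SYNM at 0.84 to 1.30, PRPH at 0.28 to 0.43 and NEFH at 0.052 to 0.25 CPM per kb. Neighbours in this order did not overlap in range, except NEFL with NEFM and INA with KRT8. The neurofilament triplet together made up between 23.7% and 25.7% of the summed level of the 10 genes, and the 2 keratins between 20.5% and 24.4%. The order depends on the transcript used for length: it was the same with the longest transcript of each gene, but with the shortest protein-coding one KRT8 moved from place 6 to place 3 and KRT18 from place 2 to place 4. The scale does not correct for reads that counting missed or that overlapping genes or pseudogenes share. The order is therefore one of counts per length, and may differ from that of transcript levels.

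**Figure D1:**
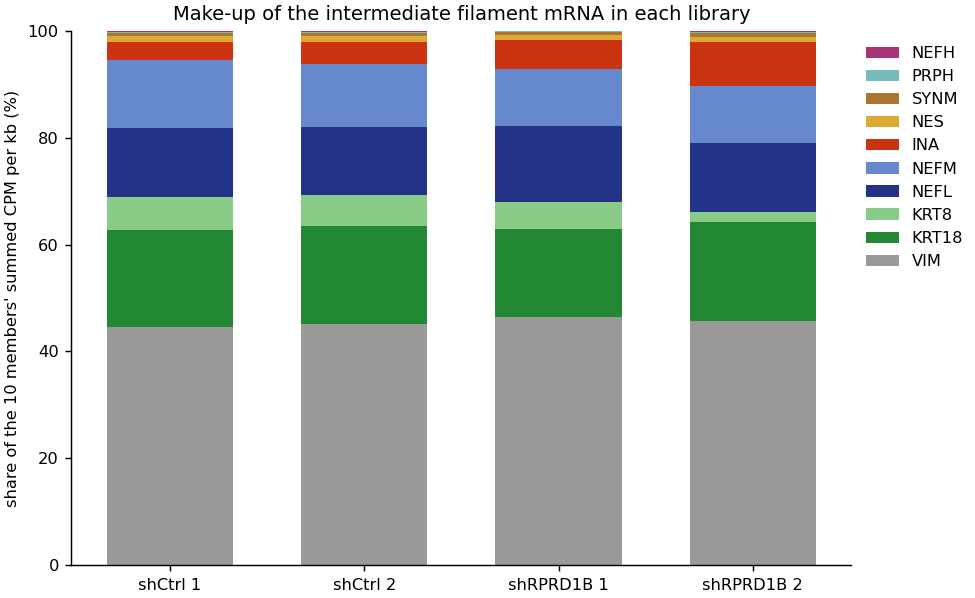
Share of each gene in the summed CPM per kilobase of the 10 intermediate filament genes (%, vertical axis) in each of the 4 libraries (horizontal axis). VIM holds 44.6% to 46.4% of every bar, the INA segment goes from 3.49% in shCtrl 1 to 8.24% in shRPRD1B 2, and the KRT8 segment is 1.83% in shRPRD1B 2 against 5.02% or more in the other libraries.

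INA was the member that differed most evenly between the groups. Its product, alpha-internexin, is a neuronal filament protein that co-assembles with the neurofilament triplet and is known for its early appearance in developing neurons. The control libraries held 1101 and 1303 reads of INA and the knockdown libraries 2431 and 2426, or 23.2, 26.8, 37.1 and 44.3 CPM. Both knockdown libraries lay above both control libraries. The means were 25.01 ± 2.50 and 40.7 ± 5.06 CPM (SD, n = 2 each), a ratio of 1.63. The log2 fold change was 0.70 ± 0.15 (SE), with a 95% interval from 0.32 to 1.08. Bulk counts cannot tell apart more cells with a transcript from more transcript per cell.

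Whether INA passed the threshold depended on the tool. With edgeR's quasi-likelihood test, fitted over 20319 genes, INA had an unadjusted p of 0.00411 and, by the Benjamini-Hochberg method, an adjusted p of 0.41, so it did not pass the threshold of 0.05 and was not called. DESeq2 called it higher (log2 fold change 0.70, adjusted p = 0.0236), and limma voom did not (adjusted p = 0.474). DESeq2 called 0.62% of all genes higher and 0.561% lower, and edgeR called 0.0295% higher and 0.0394% lower. INA was the only one of the 10 genes that DESeq2 called, and edgeR called 0 of the 10. It was also the only one at an unadjusted edgeR p under 0.05, against 3.55% of all genes higher and 3.94% lower at that p. Its log2 fold change was 0.83 without shRPRD1B 1 and 0.57 without shRPRD1B 2. Without shCtrl 1 or shCtrl 2 it was 0.60 or 0.81. Each of these fits leaves a lone library in a group, so only the effect size is given here.

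**Figure D2:**
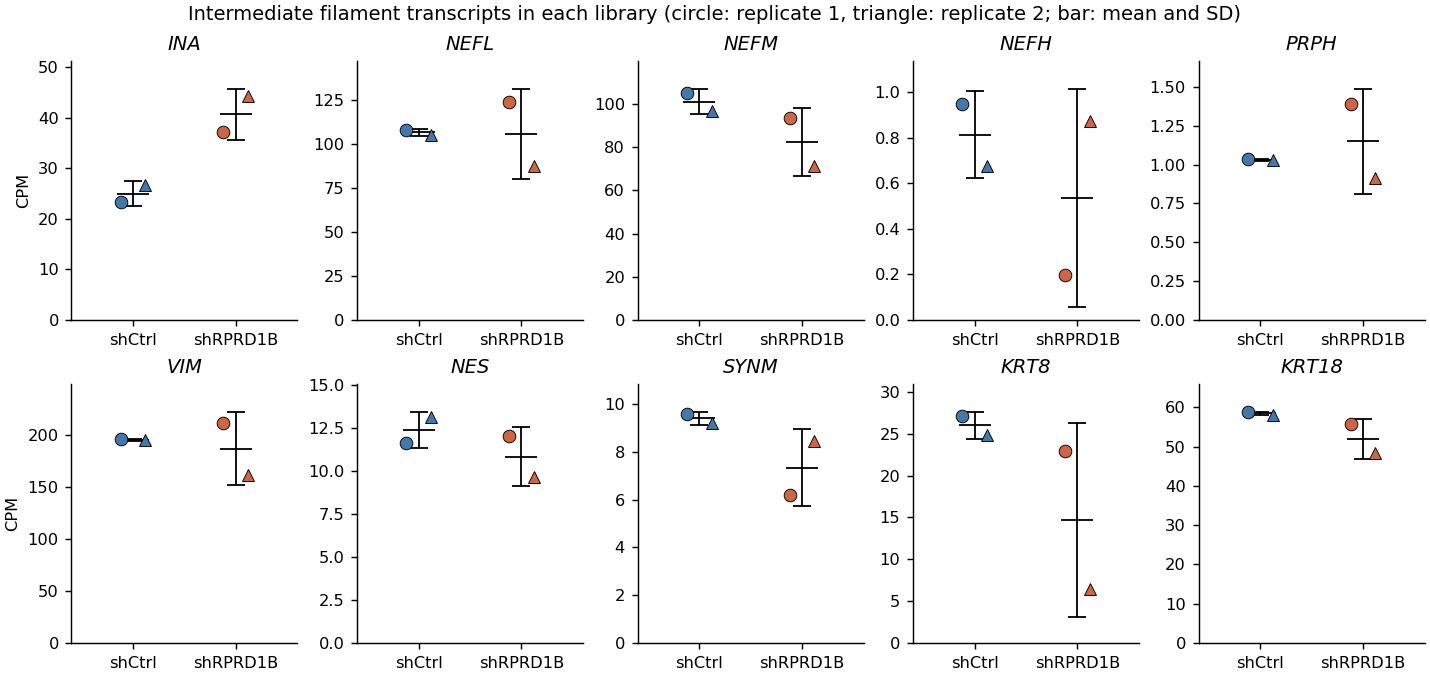
CPM (vertical axis, starting at 0, a scale of its own for each gene) of the 10 intermediate filament genes in shCtrl and shRPRD1B, with circles for replicate 1, triangles for replicate 2 and a bar for the mean and SD of 2 libraries. INA is at 23.2 and 26.8 CPM in shCtrl and at 37.1 and 44.3 CPM in shRPRD1B, while the low KRT8 value of 6.46 CPM belongs to shRPRD1B 2.

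INA lies on chromosome 10 from 103277138 to 103290346 (GRCh38, RefSeq), its GENCODE transcript has 3 exons, and RefSeq lists no gene that overlaps it. The 250 bases before its start are shown because INA is the member that stood apart. They cover chr10:103276888-103277137 on the plus strand of GRCh38.p14, from RefSeq, and capitals mark the GC box GGGCGG or its reverse complement.
INA promoter: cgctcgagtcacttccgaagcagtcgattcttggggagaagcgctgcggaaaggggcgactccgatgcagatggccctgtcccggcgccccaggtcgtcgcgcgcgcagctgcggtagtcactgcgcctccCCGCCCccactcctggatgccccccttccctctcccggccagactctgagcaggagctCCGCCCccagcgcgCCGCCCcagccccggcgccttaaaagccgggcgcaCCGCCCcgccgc
This stretch is 72.8% G and C, against a median of 58.0% over 35116 RefSeq promoters. SYNM had more, at 78.8%, and PRPH had 66.8%, NES 58.0%, KRT8 50.4% and VIM 46.0%. For motifs, 5 words were searched on both strands in the promoters of the 6 members in the table, INA, VIM, PRPH, NES, SYNM and KRT8, in windows of 250 bases before to 50 after the start. The GC box GGGCGG was in those of INA, VIM, NES and SYNM and in 45.0% of all promoters, with 4 matches in INA, 1 in VIM, and 4 each in NES and SYNM. The TATA box TATAAA was in that of PRPH and in 11.5% of all. The MYC-type E-box CACGTG (7.26% of all) and the left and right parts of the RE1 element bound by REST, TTCAGCACC (0.376% of all) and GGACAGC (6.03% of all), were in none of the 6. One pair of the GC box matches in NES and one pair in SYNM overlap each other, and no promoter of the 6 held more than 1 of the words.

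The 3′ UTR of INA holds the word ACTAGC once, at base 1046 of 1682, and the other 9 members do not hold it. The word was chosen in an earlier look at fold changes of these same data. Its presence is a description only, and it occurs in 12.6% of 18858 GENCODE 29 3′ UTRs. INA, with the word in capitals below, was on the higher side.
INA site: attccccttcccACTAGCctaggtcataaa

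None of the other neuronal filament genes had both knockdown libraries above both controls, as INA did. NEFL, the chain on which neurofilaments are built, had 108 and 106 CPM in shCtrl 1 and 2 and 124 and 87.6 CPM in shRPRD1B 1 and 2. One knockdown library was above and one below both controls, and the log2 fold change was -0.01 ± 0.18 (95% interval -0.46 to 0.44, edgeR adjusted p = 0.989). NEFM, the medium chain, had 105 and 97.0 CPM in shCtrl and 93.4 and 71.2 CPM in shRPRD1B. Both knockdown libraries were below both controls, with a log2 fold change of -0.30 ± 0.16 (-0.70 to 0.10, edgeR adjusted p = 0.706). NEFL and NEFM are neighbours on chromosome 8, NEFM from 24913761 to 24919093 and NEFL from 24950955 to 24956612 in GRCh38.

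NEFH, the heavy chain of mature large axons, had few reads: 45 and 33 in the control libraries and 13 and 48 in the knockdown libraries, or 0.95, 0.68, 0.20 and 0.88 CPM. The groups overlapped, and the 95% interval of its log2 fold change of -0.66 ran from -2.31 to 0.98. The sign of that value rests on shRPRD1B 1, since it was 0.11 without that library. PRPH, a filament protein of peripheral neurons, had 49, 50, 91 and 50 counts in the same order, and its groups overlapped as well (0.18 ± 0.34, 95% interval -0.67 to 1.02, turning to -0.17 without shRPRD1B 1). The intervals of NEFH and PRPH include both 0 and the INA value of 0.70, so these counts cannot tell whether they changed like INA. The whole PRPH gene lies within TROAP-AS1, which had 19, 21, 46 and 35 counts in the same order. Without strand information the reads of PRPH and TROAP-AS1 cannot be told apart.

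Ratios of mRNA levels were taken within each library. The ratio of INA to NEFL per kilobase was 0.272 and 0.321 in shCtrl 1 and 2 and 0.378 and 0.638 in shRPRD1B 1 and 2, with means of 0.296 ± 0.035 and 0.508 ± 0.184 (SD, n = 2 each). That of NEFM to NEFL was 0.990 and 0.934 in shCtrl and 0.765 and 0.825 in shRPRD1B. In both ratios the groups did not overlap, the first being higher and the second lower in shRPRD1B. The ratio of PRPH to NEFL, at 0.0120, 0.0122, 0.0141 and 0.0131, also lay higher, while that of NEFH to NEFL overlapped. The PRPH ratio rests on few reads, 49, 50, 91 and 50 counts of PRPH, some of which may belong to TROAP-AS1. With 2 samples against 2, no exact permutation test can give a two-sided p under 0.3333, and the ratios are given as a description with no test.

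VIM and NES overlapped between the groups, and SYNM lay lower in shRPRD1B without passing the test. VIM, the most abundant of the 10, had 196 and 195 CPM in shCtrl 1 and 2 and 212 and 162 CPM in shRPRD1B 1 and 2 (log2 fold change -0.06 ± 0.15, 95% interval -0.44 to 0.32). The knockdown libraries lay on either side of the controls, and the value was 0.12 without shRPRD1B 2 and -0.27 without shRPRD1B 1. NES, the filament protein of neural stem cells, had 11.7, 13.1, 12.04 and 9.63 CPM in the same order, and its groups overlapped (-0.19 ± 0.18). SYNM, a large protein that links filaments to the membrane, had 9.60 and 9.23 CPM in shCtrl and 6.20 and 8.48 CPM in shRPRD1B. Both SYNM knockdown values were below both controls (-0.36 ± 0.21, 95% interval -0.89 to 0.16, edgeR adjusted p = 0.716), and its value was -0.60 without shRPRD1B 2 and -0.15 without shRPRD1B 1. SYNM overlaps TTC23 by 5445 bases and VIM overlaps VIM-AS1 by 1745 bases. TTC23 had 1159 to 1528 counts and VIM-AS1 had 113 to 135, against 406 to 465 for SYNM and 8892 to 13914 for VIM. Of 10 fibroblast markers, 6 were tested and all 6 were lower in shRPRD1B 2 than in shRPRD1B 1, against 10239 of 20319 genes tested. Their summed level was 78.7, 71.1, 67.6 and 53.2 CPM in shCtrl 1, shCtrl 2, shRPRD1B 1 and shRPRD1B 2, with COL1A2 and FAP at 0 counts. Of the 6, 2 had both knockdown libraries below both controls and 2 had both above, against 20.6% and 20.3% of all genes tested. COL1A1, a collagen gene, and LUM, which encodes lumican, were lower at an unadjusted edgeR p under 0.05, against 3.94% of all genes. DESeq2 called LUM lower, at 2.20, 2.45, 0.87 and 0.62 CPM (-1.62 ± 0.30, DESeq2 adjusted p = 0.0217, edgeR adjusted p = 0.322). Their part in the VIM values was not tested.

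Of the simple epithelial keratins, KRT8 was low in one knockdown library. KRT8, the type II partner, had 1286 and 1210 counts in shCtrl 1 and 2, 1501 in shRPRD1B 1 and 354 in shRPRD1B 2, or 27.1, 24.9, 22.9 and 6.46 CPM. The last value stands far below the other 3. The log2 fold change was -0.82 ± 0.57, with a 95% interval from -2.28 to 0.65 (edgeR adjusted p = 0.745), and it was -0.18 without shRPRD1B 2 and -2.01 without shRPRD1B 1. The shRPRD1B libraries differed 3.55-fold in KRT8. Of 4303 tested genes with a mean level within a factor of 2 of KRT8, 0.627% were at least as far apart in that pair. In the shCtrl pair KRT8 differed 1.09-fold, and 31.9% of those genes differed by as much or more.

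KRT18, the type I partner, had 58.7 and 58.1 CPM in shCtrl and 55.6 and 48.4 CPM in shRPRD1B (-0.17 ± 0.12, 95% interval -0.48 to 0.14). Both its knockdown values were below both controls, but in shRPRD1B 2 it was less far down than KRT8. The ratio of KRT8 to KRT18 per kilobase was 0.340, 0.314 and 0.303 in shCtrl 1, shCtrl 2 and shRPRD1B 1, and 0.0981 in shRPRD1B 2. The genes are neighbours on chromosome 12, KRT8 from 52897191 to 52949860 and KRT18 from 52948855 to 52952906 in GRCh38, and their longest models overlap by 1006 bases.

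**Figure D3:**
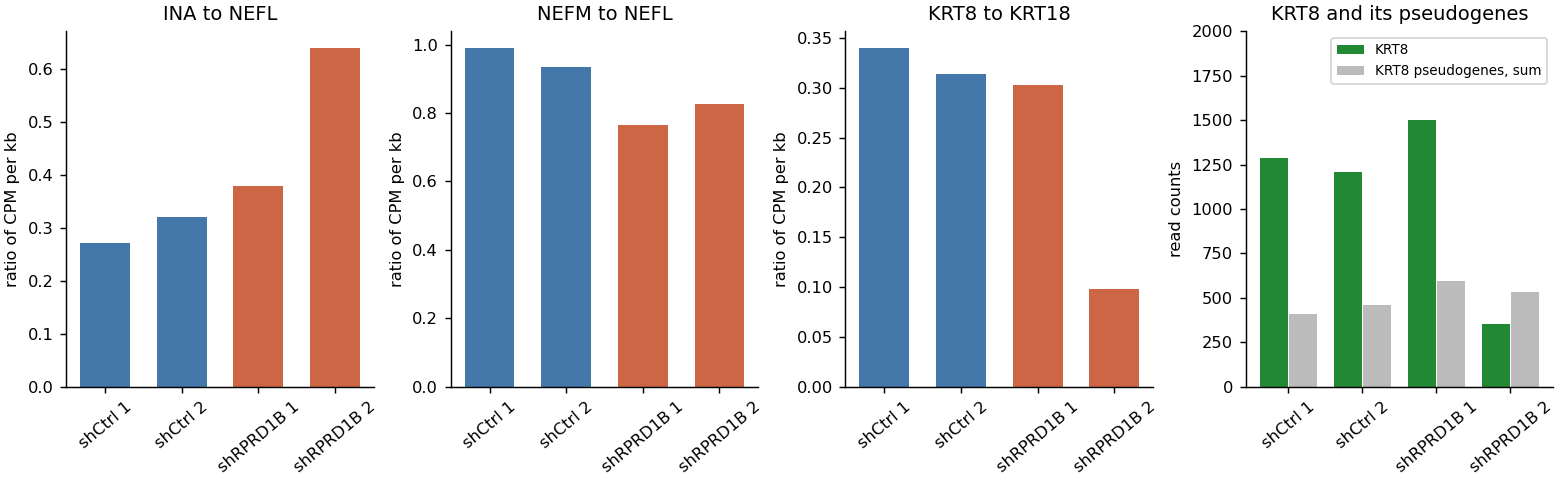
Ratios of CPM per kilobase for INA to NEFL, NEFM to NEFL and KRT8 to KRT18 (bars from 0, blue for shCtrl and orange for shRPRD1B) and, at the right, read counts of KRT8 beside the summed counts of its pseudogenes, in each of the 4 libraries. The KRT8 to KRT18 ratio is 0.0981 in shRPRD1B 2, and only there are the pseudogenes, at 533 counts, above KRT8, at 354. KRT8P12 holds 331 of those 533 counts.

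KRT8 and KRT18 have many processed pseudogenes, to which reads can be lost or from which they can be gained. The gene table holds 51 named for KRT8 and 67 for KRT18, with a median identity to the parent transcript of 89.4% and 90.4% over the best blastn match. Of all windows of 100 bases in the KRT8 transcript, 5.92% occur unchanged in at least one of its pseudogenes, and of windows of 50 bases 32.6%. For KRT18 these shares were 0.0% and 31.8%. The KRT8 pseudogenes summed to 408 and 459 counts in shCtrl 1 and 2 and to 596 in shRPRD1B 1 and 533 in shRPRD1B 2, of which KRT8P12, the one with the most reads, held 265, 315, 356 and 331. The sum over all KRT8 pseudogenes was 39.7% of the KRT8 counts in shRPRD1B 1 and 151% in shRPRD1B 2. These are raw counts, and shRPRD1B 2 was the smaller library, at 54722140 counts against 65572391. KRT8P12 has a transcript of 998 bases, and its best match to KRT8 covered 393 aligned bases at 87.0% identity. With all these counts added to the parent, KRT8P12 included, the log2 fold change of KRT8 was -0.54 and that of KRT18 -0.16. Neither was called by edgeR.

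Epithelial markers were also lower in shRPRD1B 2 than in shRPRD1B 1. Of 6 tested, 5 were lower there, with a median log2 ratio of -0.82, against 10239 of 20319 genes and a median of -0.0046 over all genes tested. CDH3 (P-cadherin) had 1.88 and 1.91 CPM in the controls and 2.72 and 0.49 CPM in the knockdown libraries. CDH1 (E-cadherin) had 4.58, 3.99, 4.35 and 2.43 CPM in that order, and ESRP2, an epithelial splicing regulator, had 4.45, 3.51, 2.41 and 1.35 CPM. The sixth marker, MUC1, a mucin gene, had both knockdown libraries above both controls, at 1.16, 1.23, 1.43 and 1.77 CPM (0.41 ± 0.29). The 12 listed markers, all with at least 1 count in some library, had a summed level of 15.1, 13.8, 13.4 and 7.72 CPM in shCtrl 1, shCtrl 2, shRPRD1B 1 and shRPRD1B 2. Their part in the KRT8 value was not tested.

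**Figure D4:**
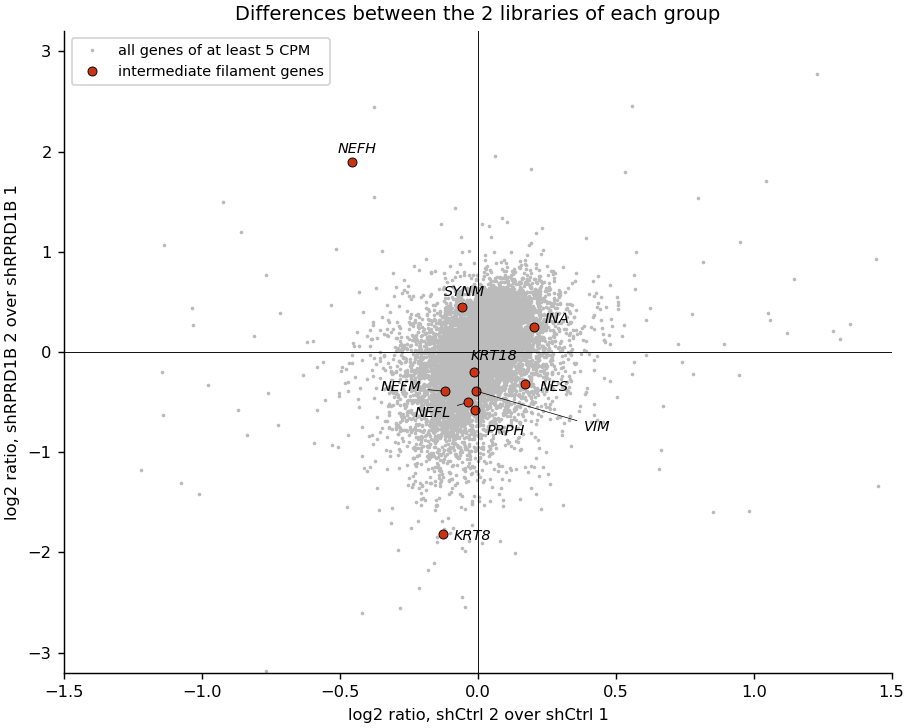
Log2 ratio of replicate 2 to replicate 1 in shCtrl (horizontal axis) and in shRPRD1B (vertical axis) for 11543 genes of at least 5 CPM (grey, of which 61 lie outside the plotted range) and the 10 intermediate filament genes (red, NEFH and PRPH being under 5 CPM). KRT8 is at -1.82 on the vertical axis and NEFH at 1.90, and the other 8 members lie between -0.58 and 0.45.

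As a list, 4 of the 10 genes (NEFM, SYNM, KRT8 and KRT18) had both knockdown libraries below both controls and 1 (INA) had both above, against 20.6% and 20.3% of all genes tested. The members' median log2 fold change was -0.18, beside 0.00 over all genes. Of the 10, 8 had negative log2 fold changes, against 10062 of 20319 genes. Between the knockdown libraries, 7 of 10 were lower in shRPRD1B 2 than in shRPRD1B 1, against 10239 of 20319 genes. The members' median log2 ratio was -0.35, beside -0.0046 over all genes. The summed level of the 10 was 206 and 203 CPM per kb in shCtrl 1 and 2, 214 in shRPRD1B 1 and 166 in shRPRD1B 2.

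Each knockdown library gave its own set of calls when set alone against shCtrl. With shRPRD1B 2 alone, edgeR called INA higher and KRT8, KRT18, NEFL, NEFM and VIM lower, where 14.6% of all genes were called higher and 14.4% lower. With shRPRD1B 1 alone, edgeR called INA and NEFL higher and NEFH and SYNM lower, where 5.91% of all genes were called higher and 4.47% lower. INA was called higher in both fits, which share the 2 shCtrl libraries. NEFL was called in opposite directions, at 0.22 with shRPRD1B 1 alone and -0.28 with shRPRD1B 2 alone. These fits assume that the lone library varies like the shCtrl pair, which the shRPRD1B libraries did not.

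**Figure D5:**
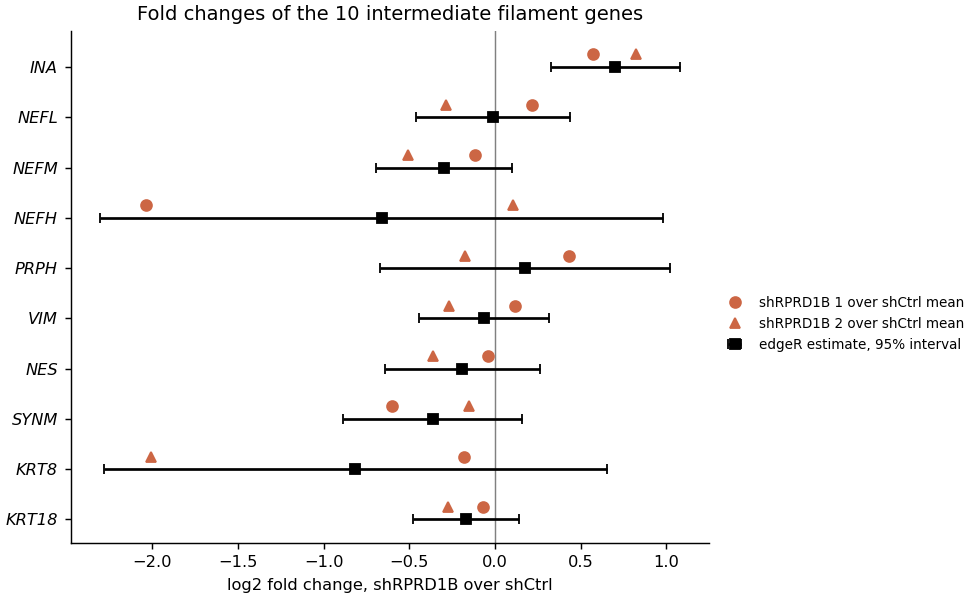
Log2 fold change of shRPRD1B over shCtrl (horizontal axis) for each of the 10 genes, as the edgeR estimate with its 95% interval (black squares and bars) and as each knockdown library over the shCtrl mean (orange, circle for shRPRD1B 1 and triangle for shRPRD1B 2). The interval of INA, 0.32 to 1.08, lies above 0, and the intervals of the other 9 genes include 0.

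Most other cytoplasmic members of the intermediate filament family had few or no counts. Of 58 other cytoplasmic intermediate filament genes, 40 had exactly 0 counts in all 4 libraries. An observed count of 0 leaves room for an expected count of up to 3 in a library. Another 7 genes had enough counts to be tested. Their median log2 fold change was -0.19, 4 had both knockdown libraries below both controls and 0 had both above, against 20.6% and 20.3% of all genes tested. Neither edgeR nor DESeq2 called any, and 0 were at an unadjusted p under 0.05. KRT10, a type I keratin of stratified epithelium, was the most abundant per kilobase, with 40.8 and 40.5 CPM in shCtrl and 37.3 and 33.9 CPM in shRPRD1B (-0.19 ± 0.12). GFAP, the glial filament gene, had 2.87, 2.96, 2.56 and 1.93 CPM, and SYNC (syncoilin) 0.86, 1.79, 0.72 and 0.44 CPM. BFSP1, a lens filament gene, overlapped between the groups at 5.07, 6.64, 5.31 and 6.35 CPM.

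The lamins, the nuclear branch of the family, were abundant in all libraries. LMNB2 had 541 and 544 CPM in shCtrl and 557 and 595 CPM in shRPRD1B (0.09 ± 0.11). LMNB1 had 250 and 253 CPM in shCtrl and 192 and 248.6 CPM in shRPRD1B (-0.19 ± 0.15), and LMNA had 144, 134, 151 and 114 CPM (-0.07 ± 0.16). Neither tool called any of the 3 lamins, and at an unadjusted edgeR p under 0.05 there were 0.

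Proteins that anchor filaments showed 2 genes at a small unadjusted p. Of 13 plakins and desmosomal linkers, 11 were tested, with a median log2 fold change of 0.06 and 0 calls by edgeR or DESeq2. PLEC (plectin), which ties intermediate filaments to actin, microtubules and adhesion sites, had 206 and 201 CPM in shCtrl and 248 and 281 CPM in shRPRD1B (0.38 ± 0.12, edgeR adjusted p = 0.59). PKP3, a desmosomal plakophilin, had 1.79 and 2.30 CPM in shCtrl, 0.89 in shRPRD1B 1 and 0.20 in shRPRD1B 2 (-1.85 ± 0.55, edgeR adjusted p = 0.577). No other gene of that list was at an unadjusted edgeR p under 0.05, against 3.55% of all genes higher and 3.94% lower. DSP (desmoplakin, 188, 209, 177 and 238 CPM) and MACF1 (145, 163, 158 and 228 CPM) overlapped between the groups, and JUP (plakoglobin, 88.4, 89.7, 72.4 and 84.5 CPM) was on the lower side.

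Genes for filament turnover, chaperones and kinases included the one other DESeq2 call among these lists of filament genes. TRIM2, a ubiquitin ligase that binds the neurofilament light chain, had 27.4 and 29.1 CPM in shCtrl and 19.0 and 18.2 CPM in shRPRD1B (-0.60 ± 0.13). DESeq2 called it lower (adjusted p = 0.0419), and edgeR did not (adjusted p = 0.41). STUB1, a chaperone-linked ubiquitin ligase, had 222 and 194 CPM in shCtrl and 169 and 112 CPM in shRPRD1B (-0.56 ± 0.21, edgeR adjusted p = 0.66). HSPB1, a small heat shock protein that associates with filaments, had 210 and 190 CPM in shCtrl, 167 in shRPRD1B 1 and 84.4 in shRPRD1B 2. FAM83H, which organises keratin filaments, had 3.27, 3.49, 2.18 and 2.55 CPM, and CSNK1A1, the kinase it recruits, had 168, 166, 135 and 151 CPM. TRIM2 and STUB1, both lower, were the 2 of 16 tested genes at an unadjusted edgeR p under 0.05. Over all genes tested, the shares at that p were 3.94% lower and 3.55% higher. Of the 16, 6 had both knockdown libraries below both controls and 2 had both above, against 20.6% and 20.3% of all genes tested. The median log2 fold change of the 16 was -0.04.

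Neuronal markers, kept as a separate list, were on the higher side beside INA. Of 7 tested, 6 had both knockdown libraries above both controls (20.3% of all genes tested), with a median log2 fold change of 0.57. The list was chosen with earlier results of these data known, so this share is a description only. Levels were low: of the 10 listed markers, 5 reached a mean of 1 CPM and 0 a mean of 10 CPM. At an unadjusted edgeR p under 0.05, RBFOX3, SNAP25 and ELAVL4 were higher, against 3.55% of all genes. The other tested marker, TUBB3, a neuronal tubulin gene, overlapped between the groups at 0.51, 0.80, 0.53 and 0.42 CPM (-0.44 ± 0.42). RBFOX3, the neuronal splicing factor known as NeuN, had 7.32 and 6.68 CPM in shCtrl and 15.1 and 9.63 CPM in shRPRD1B (0.83 ± 0.26, edgeR adjusted p = 0.595). Neither edgeR nor DESeq2 called any of the 7. DCX, STMN2 and ELAVL3, markers of young neurons, were at or near 0 in all libraries. The summed level of the 10 listed markers was 22.2 and 21.8 CPM in shCtrl and 37.1 and 29.8 CPM in shRPRD1B. Their part in the INA value was not tested.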

How the data were processed

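Poly(A) RNA of 4 HEK293T libraries was measured, 2 per group. The submitters' processing notes name Trim Galore, HISAT2, featureCounts and hg38. For versions, annotation release, strand setting and multi-mapped reads: not given in the sources used here. The authors deposited raw read counts per gene, per the file headers and values, with totals of 47732913 to 65572391.

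Symbols came from a table matched on identifiers (62639 matched), coordinates from RefSeq (GRCh38.p14) and transcripts from GENCODE 29, 1 protein-coding transcript per gene by APPRIS rank, then CCDS, support level and length. The test was edgeR 4.0.16 (R 4.3.3) with the quasi-likelihood fit, robust estimation, TMM and filterByExpr (minimum count 10), adjusted over 20319 genes, threshold 0.05. SEs and 95% intervals are from that fit. DESeq2 1.42.0 and limma 3.58.1 were alternatives, DESeq2 on the same filtered genes, beside other scalings, filters, a replicate block, an older edgeR fit, each library left out, other transcript lengths and pseudogene counts added. The fit was tested on simulated data. Pseudogenes were aligned with blastn 2.17.0. The members and lists were chosen with earlier results of these data known. All members were named, and from other lists the called genes, the 3 with the smallest p and the 2 highest per length. From the marker lists, examples were named after their values were seen. Protein sequences were not used here.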

Additional observations from a re-analysis of the deposited data

How the results depend on the processing

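Over 9 other settings of test, scaling, filter and block, no member changed direction, and INA with DESeq2 was the only call; NEFH and PRPH could not be fitted under the 5 CPM filter. Beside 6 genes called higher and 8 lower by edgeR over the whole table, DESeq2 called 126 and 114, limma voom 0 and 0 (646 and 803 at an unadjusted p under 0.05), no low-count filter 23 and 17, at least 5 CPM in 2 libraries 0 and 0 (398 and 478 at an unadjusted edgeR p under 0.05), and the replicate block 85 and 56. The older quasi-likelihood fit of edgeR, chosen after seeing the data, called 3 lower. Leaving out 1 library gave 12 to 3139 genes higher and 36 to 3096 lower, and 0 to 2 members higher and 0 to 5 lower. DESeq2 called 1 member higher. Leaving out 1 library turned some log2 fold changes: NEFL ranged from -0.28 to 0.22 (0.00497 without shCtrl 1), NEFH from -2.02 to 0.11, PRPH from -0.17 to 0.43 and VIM from -0.27 to 0.12. The cause was not tested.

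Nothing in the labels ties same-numbered libraries to each other. Their deviations correlated at 0.01 over all tested genes and at 0.21 over the 8966 of at least 16 CPM, and 2 pairs are too few to settle whether the numbers mark a pairing. With the replicate block the edgeR adjusted p of INA was 0.0771. Length by the longest transcript moved 5 of 20 levels and 3 of 14 ratios beyond the spread between replicates, and the shortest protein-coding transcript moved 14 of 20 levels. Depth limits NEFH and PRPH, each under 100 counts in every library.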
